A study of Homo sapiens with 47 samples.

Results

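The cytosolic ribosome is a large and a small subunit of ribosomal RNA, each covered by a fixed set of proteins, and the genes of these proteins were followed in circulating tumor cells (CTCs) and in cells of the same line grown in culture. A gene was taken as a member when it was protein-coding and carried the symbol of a numbered protein of the large subunit (RPL), the small subunit (RPS) or the stalk (RPLP0, RPLP1 and RPLP2), or was RPSA, with genes on chromosome Y left out. This rule uses names and no measured value, and it gave 81 of the 25739 genes in the expression table, 49 of the large and 32 of the small subunit. Members were drawn from the rows of that table, and they include the paralogs RPL3L, RPL10L, RPL39L and RPS27L.

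Both groups were human MDA-MB-231-LM2 (LM2) cells, a line of triple-negative breast cancer that metastasizes readily. The CTCs carried GFP and had been shed into the blood of NSG mice, which lack T, B and NK cells, from tumors of the mammary fat pad. They were enriched by size and picked singly by GFP after a stain for CD45. There were 37 CTCs, 2 from mouse 5541, 4 each from mice 5542 and 5549, 10 from mouse 5545 and 17 from mouse 5546. The comparison group was 6 LM2 cells taken from culture, with no passage through a mouse. The labels give no treatment and place all samples in 1 batch. The mouse was the replicate for CTCs, and the 6 cultured cells were 1 culture with no replicate, so blood passage, mouse, handling and culture cannot be told apart, and an exact permutation of 5 mice against 1 culture could not pass 0.05. All libraries were made by SMARTseq2, which copies full-length polyadenylated RNA and has no molecular identifiers.

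Ribosomal protein genes are among the most transcribed genes of a growing cell, and their products are needed in equal numbers. Their mRNAs begin with a C followed by a run of pyrimidines, the 5′ terminal oligopyrimidine (TOP) tract, through which mTORC1 and the RNA-binding protein LARP1 set how much of each mRNA is translated. Control by this tract acts on translation, whereas the measurements here are of RNA. Several members also act away from the ribosome, such as RPL5 and RPL11, which with 5S rRNA bind the p53 regulator MDM2.

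RefSeq windows around the annotated start (GRCh38.p14) were matched to 64 of the 81 members. A C at the start with at least 5 pyrimidines in a row, counting the start, was present in 46 of 64 members (71.9%) and in 5.14% of 27305 genes with a window. The windows below are those of members whose values are described in detail, 15 bases before the start and 15 from it on. The pyrimidine run that begins at the annotated start is in capitals.
RPL22 (chr1:6199581-6199610, minus strand): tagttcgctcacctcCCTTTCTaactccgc
RPL4 (chr15:66504841-66504870, minus strand): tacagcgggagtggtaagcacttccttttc
RPL17 (chr18:49492451-49492480, minus strand): cctctttccctaagcagcctgaggtgagtg
RPLP1 (chr15:69452803-69452832, plus strand): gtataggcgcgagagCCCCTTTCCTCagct
RPS12 (chr6:132814554-132814583, plus strand): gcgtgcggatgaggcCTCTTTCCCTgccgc
RPL28 (chr19:55385917-55385946, plus strand): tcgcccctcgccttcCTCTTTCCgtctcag
RPL41 (chr12:56116618-56116647, plus strand): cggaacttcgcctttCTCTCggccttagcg
RPS18 (chr6:33272060-33272089, plus strand): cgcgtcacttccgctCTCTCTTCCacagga
RPL19 (chr17:39200308-39200337, plus strand): gagcgagctctttccTTTCgctgctgcggc
RPS27L (chr15:63157463-63157492, minus strand): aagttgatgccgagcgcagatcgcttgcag
RPL10L (chr14:46651767-46651796, minus strand): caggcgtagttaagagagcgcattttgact
The windows of RPL4, RPL17, RPS27L and RPL10L hold no pyrimidine run at the annotated start, and in RPL19 the run begins with T. An annotated start can lie a few bases from the start used in the cell, so a missing run says only that these letters are not at that base.

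Over the first 15 bases from the start, CTTTC was present in 39.1% of the 64 members and 2.82% of all genes, and CTTTT, which can follow the same C, in 23.4% and 2.19%. Over the whole window of 300 bases, searched on both strands, the members held CCGGAAG in 35.9% against 12.2% of all genes, AAGATGGCG in 7.81% against 2.14%, and GGGCGG in 59.4% against 48.3%. The TATAAA box was in 9.38% of members and 14% of all genes, and the E-box CACGTG in 6.25% and 8.77%. These are shares of windows that hold the letters and not sites shown to be bound.

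Depth was 469614 to 2041333 reads per CTC (median 1257540) and 776949 to 1186197 per cultured cell. CTCs held 77 to 80 of the 81 members with a median of 79, and each cultured cell held 79. Thinned to 469614 reads, the CTCs still held 76 to 80 with a median of 79. Of the members, 75 were detected in all 37 CTCs and 71 had a normalized count of at least 8 in every CTC. The family was thus detected nearly whole in each cell, whereas a mean of 7169 genes were detected per CTC (mean of 5 mouse means) against 9683 per cultured cell.

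Ribosomal protein genes took a larger share of the reads in CTCs than in culture. The mean share was 9.14% in mouse 5541, 9.19% in mouse 5542, 11.9% in mouse 5545, 11.4% in mouse 5546 and 11.3% in mouse 5549, which gives 10.6% ± 1.33 (SD, n = 5 mice). In culture it was 7.49% over 6 cells, with a range from 5.93% to 10.1%. Cultured cells LM-1, LM-P3 and LM-P4, with 11270 to 12271 genes detected, held 5.93% to 6.62%. LM-10, LM-2 and LM-3, with 7226 to 8267, held 7.88% to 10.1%. How genes detected bear on the comparison with CTCs was not tested. All mouse means were above the culture mean, by 3.11 percentage points on average or 1.41-fold, but those of mice 5541 and 5542 lay inside the range of the cultured cells. Single CTCs ranged from 5.75% (5549-6) to 27.7% (5545-6) with a median of 10.3%, so both the lowest and the highest cell were CTCs.

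**Figure D1:**
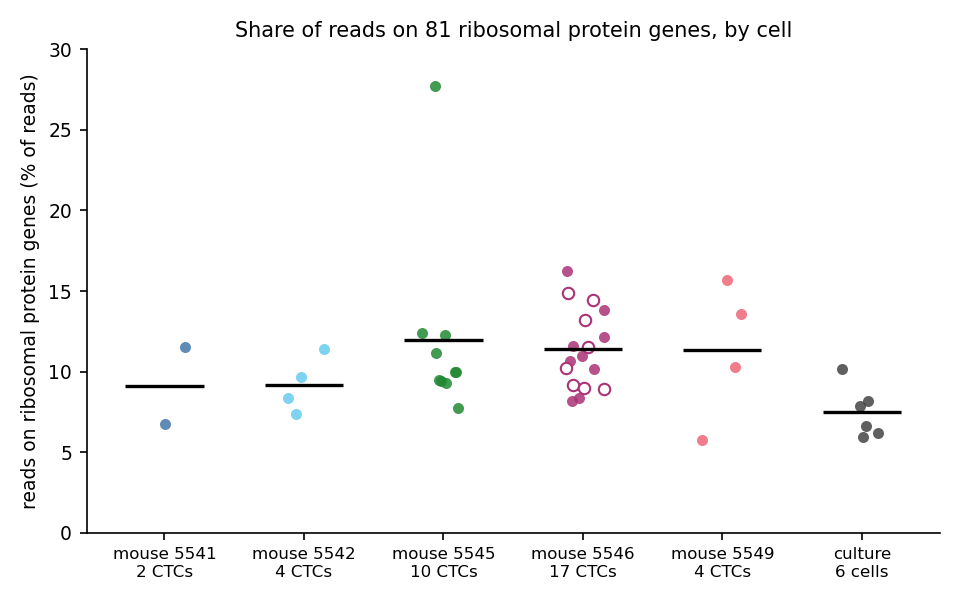
Share of reads on the 81 ribosomal protein genes in percent, 1 point per cell, for the CTCs of 5 mice and the cultured cells, with bars at the group means and open circles for the libraries of mouse 5546 with the letter s. The mouse means sit between 9.14% and 11.9% and the culture mean at 7.49%, and CTC 5545-6 stands alone at 27.7%.

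The difference in share remained when CTCs that stood apart were left out, an alternative chosen after the data were seen. It was 2.76 percentage points without 5545-6 and 3.48 without 5549-6. With reads of mitochondrially encoded genes removed from the total, the shares were 11.5% in CTCs and 7.86% in culture. Those mitochondrial reads were themselves 8.13% of reads in CTCs against 4.69% in culture. In mouse 5546, libraries whose names carry the letter c held 8.19% to 16.2% and those with s 8.89% to 14.9%, so the ranges of the unexplained letters overlapped.

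Of the markers of blood cells, those of erythroid cells and neutrophils had reads in CTCs and none in cultured cells. The part of blood cells in the difference was not tested. The blood was that of mice, and the methods name the human genome alone for alignment. Whether reads of mouse cells were counted on members was not tested. The unit RPM is reads on a gene scaled to the same total of reads in every library. The summed level of erythroid markers (6 of 8 in the table) ran from 0 to 15899 RPM in CTCs (median 1324, reads in 36 of 37) and was 0 in every cultured cell. Neutrophil markers (6 of 8) ran from 0 to 711 in CTCs and were 0 in culture. Platelet markers (5 of 6) ran from 0 to 95.6 against 0 to 2.54, with a median of 0 in both groups. Leukocyte markers (8 of 11) ran from 4.85 to 1496 against 64.8 to 299, with medians of 162 in CTCs and 206 in culture. The line's own list of 9 genes, among them VIM, CD44 and EGFR, had reads in every cell, 7624 to 42602 RPM in CTCs and 8693 to 15822 in culture. Over the 37 CTCs, which share mice and a table, the Spearman correlation of the ribosomal protein share with the summed blood markers was -0.055.

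Whether a member was called lower or higher in CTCs depended on the scale. The authors' normalized counts are reads divided by a size factor for each cell, and the size factors of CTCs ran from 0.47 to 3.09 (median 1.70) and those of cultured cells from 0.50 to 0.84 (median 0.68). A CTC thus had a median of 835760 reads per unit of size factor and a cultured cell 1318825. By the rule of size used here, a gene differed when all 5 mouse means were at least 2-fold from the culture mean in the same direction, after 1 was added to both, with the larger mean at least 8. On normalized counts RPL17 and RPL22 met it, both lower in CTCs, and no member was higher, of 79 members that reached the minimum. Among all 9164 genes so measured, 25.1% were lower by this rule and 0.262% higher. With only the same direction in all 5 mice required, 29 members were lower and 0 higher, against 60.3% and 1.04% of all genes.

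On RPM most members lay on the other side, with mean log2 ratios above 0 for 69 of 79, against 12 of 79 on normalized counts. No member differed 2-fold in every mouse, while 8.72% of 8777 genes were lower and 0.695% higher by that rule. In all 5 mice 3 members were lower and 42 higher, against 34.7% and 4.88% of all genes. The median log2 ratio of the 79 members was -0.27 on normalized counts and 0.48 on RPM, and that of all genes was -1.56 and -0.81. The direction of the family thus depended on the scale. The members sat 1.29 above the median gene on the log2 scale in both cases. By mouse this distance was 1.06 to 1.47 on normalized counts and 1.04 to 1.46 on RPM. A change of scale moves all genes of a cell together, so near-equal distances on 2 scales are no separate evidence. On reads summed per mouse, the edgeR medians were 1.10 for members and 0.31 for all 13813 genes, a smaller distance.

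**Figure D2:**
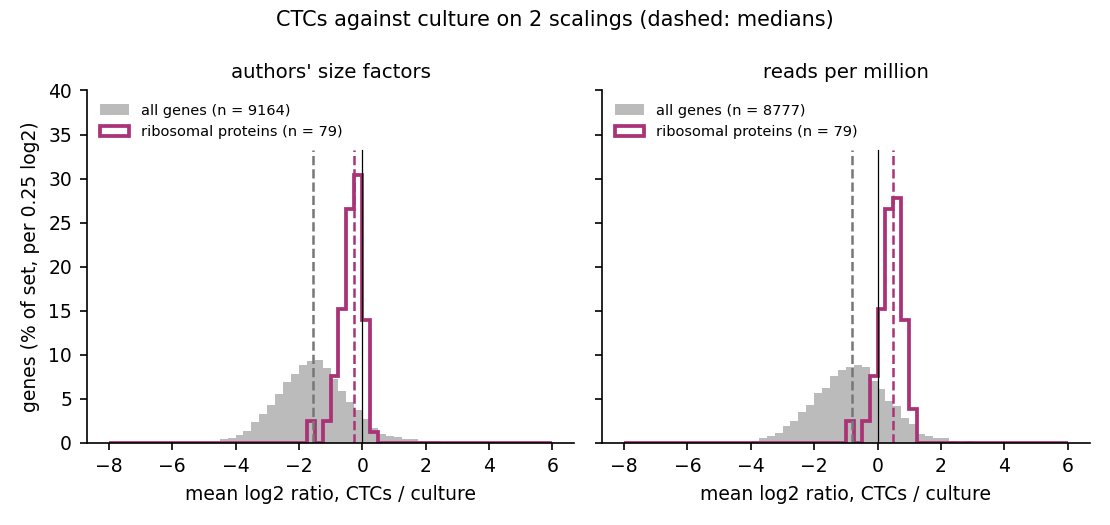
Log2 ratio of the CTC mean over the culture mean, averaged over 5 mice, on normalized counts and on RPM, with the percent of all genes (grey) and of the 79 members (purple) in each step of 0.25 and dashed lines at the medians. The members' median is -0.27 on normalized counts and 0.48 on RPM, and it is 1.29 above the median of all genes in both.

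As a set, other genes of high level had lower median ratios than the members, without a match in level beyond a minimum. Other protein-coding genes with an average of at least 250 had a median log2 ratio of -1.12 on normalized counts (678 genes) and -0.24 on RPM (570 genes), both below the members' medians. Of the 79 members, 77 were above the median of all genes on each scale. The exceptions on normalized counts were RPL22 and RPL17, at -1.66 ± 0.36 and -1.59 ± 0.59 (SD, n = 5 mice).

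The quasi-likelihood test of edgeR on reads summed per mouse and over the culture, for which the lone culture is taken to be as variable as the mice, called 0 of 80 members. It called 0% of 13813 genes lower and 0% higher at an adjusted p of 0.05. At an unadjusted p under 0.05 there were 16 members and 241 genes in all, and DESeq2 on the same sums also called 0 members, with 14 other genes higher and 1 member at an unadjusted p under 0.05. Without a filter on low counts edgeR called 7 genes lower and 20 higher, again with 0 members. The smallest unadjusted p among the members named here was that of RPLP1, 0.0092, with an adjusted p of 1 and a log2 ratio of 1.67 under edgeR's TMM scaling.

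To compare members with each other without the choice of scale, each was taken as a percent of all reads on the 81 members in its cell. On this measure 67 of 79 members differed by less than 0.5 on the log2 scale between the CTC mean and culture, with quartiles of -0.31 and 0.16. In all 5 mice 11 members were lower and 11 higher, and on the same scale 42% of 14263 genes were lower and 1.86% higher. All 5 mouse means lay below every cultured cell for RPL4 and RPL17 (3.51% of all genes) and above every cultured cell for no member (0.456% of all genes). On this scale the median log2 ratio was -0.013 for members and -1.51 for all genes. The rates of members and of all genes thus start from different centers and are not like for like.

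**Figure D3:**
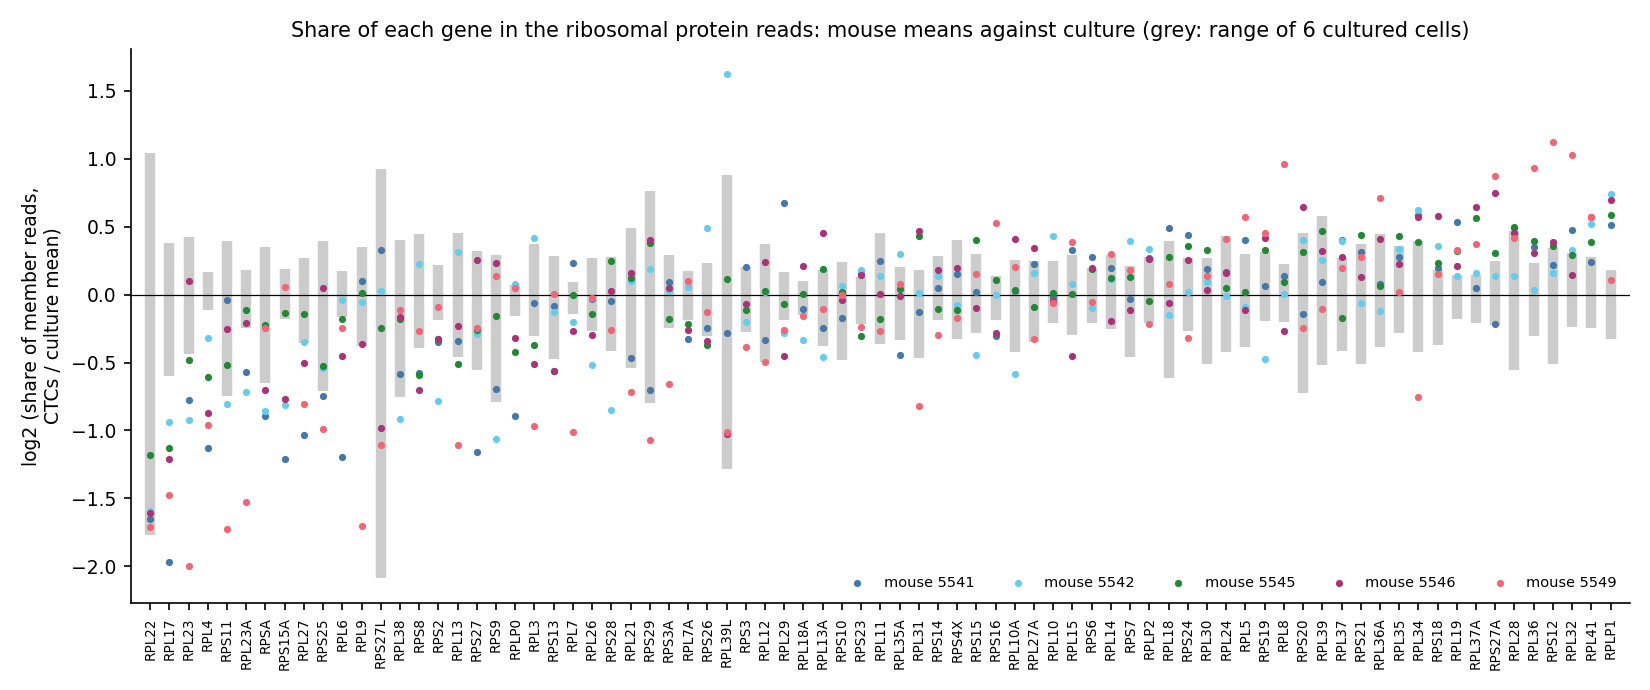
Log2 ratio of the percent of member reads, CTCs against culture, for 77 members in order of their mean ratio, with 1 point per mouse and a grey bar for the range of single cultured cells. RPL4 and RPL17 lie below the bar in all 5 mice, and the points of RPL22 lie within its wide bar.

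RPL4, RPL17, RPL22 and RPL23, all of the large subunit, were among the members lowest in CTCs against culture. RPL4 (ENSG00000174444, chr15:66498015-66524532) helps line the tunnel through which the new protein leaves the ribosome. It was 1.08%, 1.89%, 1.55%, 1.29% and 1.21% of member reads in mice 5541, 5542, 5545, 5546 and 5549, and 2.19% to 2.65% in cultured cells (median 2.24%). Its groups did not overlap at the level of mouse means, and 34 of 37 CTCs were below the lowest cultured cell. Mouse means all below the culture were found for 2 of 80 members and for 3.51% of all genes. The median log2 ratio on this scale was -0.013 for members and -1.51 for all genes, so these rates cannot be set against each other. The log2 ratio of RPL4 was -0.78 ± 0.32 (SD, n = 5) within the family and -1.10 ± 0.53 on normalized counts. It was -0.38 ± 0.47 on RPM and 0.29 under edgeR's TMM scaling, so its direction depended on the scale.

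RPL17 (ENSG00000265681, chr18:49488453-49492508) sits at the mouth of the same tunnel. In the same order of mice it was 0.0255%, 0.0520%, 0.0457%, 0.0433% and 0.0359% of member reads, against 0.0658% to 0.130% in cultured cells (median 0.102%). All mouse means were again under the lowest cultured cell, as were 32 of 37 CTCs, at a log2 ratio of -1.34 ± 0.40 (SD, n = 5). The log2 ratio of RPL17 was -0.83 ± 0.56 on RPM and -0.18 under edgeR's TMM scaling. The annotated exons of its main transcript overlap by 96.9% with the readthrough gene RPL17-C18orf32, so its reads cannot be told apart from that gene's and its level is uncertain. Its pseudogenes held 42.1 reads per 100 of its own in CTCs.

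RPL22 (ENSG00000116251, chr1:6185020-6209389) binds RNA and, unlike most members, can be lost without stopping the ribosome. Its mouse means were 0.0531%, 0.0553%, 0.0738%, 0.0548% and 0.0510% of member reads. Cultured cells ran from 0.0490% to 0.343% with a median of 0.161%, so the mouse means were close to each other and inside the range of the culture. Its log2 ratio was -1.55 ± 0.21 (SD, n = 5) within the family, -0.87 ± 0.30 on RPM and -0.30 under edgeR's TMM scaling. On normalized counts the call of RPL22 was lost when cultured cell LM-1, LM-P3 or LM-P4 was left out. RPL17 was then the 1 member still called.

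RPL23, another protein reported to bind MDM2, was lower within the family on average but not in every mouse. It ranged from 0.370% of member reads in mouse 5549 to 1.59% in mouse 5546, against 1.09% to 1.99% in culture. Its log2 ratio within the family was -0.82 ± 0.77 (SD, n = 5), which is a spread between mice of the same order as the difference. On RPM the ratio of RPL23 was -0.30 ± 0.70, and under edgeR's TMM scaling it was 0.38.

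At the other end were the stalk protein RPLP1, RPS12, RPL28 and RPL41, together with the low paralogs RPL10L and RPL3L. RPLP1 (ENSG00000137818, chr15:69452814-69456205) forms with RPLP2 the flexible stalk that recruits elongation factors. It was 2.44%, 2.85%, 2.56%, 2.77% and 1.84% of member reads in mice 5541, 5542, 5545, 5546 and 5549, and 1.36% to 1.94% in cultured cells (median 1.73%). Only mouse 5549 fell within the culture range, and 30 of 37 CTCs were above the highest cultured cell. Its log2 ratio was 0.53 ± 0.25 (SD, n = 5) within the family, 0.31 ± 0.29 on normalized counts and 1.07 ± 0.26 on RPM.

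RPL41, the shortest ribosomal protein, was 0.957% in mouse 5541 and 1.06% to 1.21% in the other mice, against 0.682% to 0.982% in cultured cells, and 26 CTCs exceeded the highest cultured cell. RPS12 was 0.801% to 0.939% in 4 mice and 1.56% in mouse 5549, against 0.504% to 0.908%. RPL28 was 0.285% in mouse 5542 and 0.346% to 0.366% in the others, against 0.176% to 0.359%. The log2 ratios were 0.46 ± 0.14 for RPL41, 0.45 ± 0.39 for RPS12 and 0.40 ± 0.15 for RPL28 (SD, n = 5), and for each of them the mouse means overlapped the range of single cultured cells.

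The members with roles beyond structure did not move as a block within the family. The remaining stalk proteins differed from RPLP1, since the log2 ratio of RPLP0, the base of the stalk, was -0.30 ± 0.40 and that of RPLP2 was 0.12 ± 0.24 (SD, n = 5). RPL5 took 3.95% to 6.34% of member reads by mouse and 3.27% to 5.26% in culture, and RPL11 took 0.427% to 0.609% against 0.399% to 0.704%, so both partners of 5S rRNA overlapped between groups. RPS6, the substrate of S6 kinase, had a log2 ratio of 0.10 ± 0.17.

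RPS27A, which is made as a fusion with ubiquitin, was 0.822% in mouse 5541 and 1.75% in mouse 5549, with 0.818% to 1.14% in culture and a log2 ratio of 0.37 ± 0.45 (SD, n = 5). RPSA, also known as a laminin receptor, was -0.58 ± 0.33 and lower in every mouse, from 0.804% to 1.28% against 0.948% to 1.91%. The log2 ratios of RPS3, a protein with a role in DNA repair, RPS19, mutated in Diamond-Blackfan anemia, and RPL13A, which silences inflammatory mRNAs, were -0.11 ± 0.22, 0.16 ± 0.38 and -0.03 ± 0.36.

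Across the 79 members the log2 ratio within the family had a Spearman correlation of -0.09 with transcript length, 0.10 with the level in culture and -0.11 with the number of annotated pseudogenes. The points share libraries, and these are descriptions across genes. The median log2 ratio was 0.00 for the 46 members with a C and at least 5 pyrimidines at the start and -0.16 for the 17 without this combination in any window.

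The make-up of the family was compared first with the mean of the culture. The percent of member reads that would have to move between members to give the mean of the culture was 8.77 to 37.5 in CTCs (median 15.2). For each cultured cell against the other 5 it was 5.52 to 9.01 (median 6.86), and 1 CTC, 5545-3 at 8.77, lay under the top of that range. The Spearman correlation with the culture across members was 0.657 to 0.934 in CTCs, while cultured cells gave 0.968 to 0.983. Pairs of cells were then compared within each group, a measure added after the data were seen that does not use the culture as reference for CTCs. The percent displaced between 2 CTCs of the same mouse was 8.31 to 40.1 (median 18.3, 194 pairs), with medians by mouse from 16.8 to 28.7, and between 2 cultured cells it was 4.15 to 11.3 (median 9.58, 15 pairs). The ranges overlapped at their ends, and pairs share cells. The reads on large over small subunit members were 1.22 to 2.55 in CTCs and 1.54 to 1.69 in culture, with 1.70 ± 0.13 (SD, n = 5) over mouse means and 1.58 in culture.

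CTC 5549-6 lay farthest from the culture by percent displaced, while 5549-2 had the lowest Spearman correlation, 0.657 against 0.677 in 5549-6. Its member reads were concentrated on RPL8 (11.6%), RPL5 (10.3%) and RPL15 (8.36%), and its 10 highest members took 56.7%, against 27.6% to 34.6% in cultured cells. It had 588141 reads, the lowest share of reads on members (5.75%), the highest summed erythroid markers (15899 RPM) and the lowest summed line markers (7624 RPM). Its percent displaced was 37.5, followed by 25.3 in 5546-s1.

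Levels of different members were compared per length, as RPM per kilobase of the MANE Select transcript (RPKM), in means of mouse means. RPS18, of the head of the small subunit, was highest at 7794 ± 1551 (SD, n = 5), followed by RPL5 at 4712, RPL19 at 4285, RPS15 at 4012, RPL35 at 4005, RPL8 at 3401, RPS24 at 2850, RPL36 at 2763, RPL7A at 2585 and RPL3 at 2510. In this order RPS18 was separated from RPL5 by more than the SD over mice of either gene, and each later neighbor lay within the larger SD of its pair. The lowest were RPL3L at 0.09, RPL10L at 4.45, RPS27L at 10.8, RPL22 at 30.6 and RPL17 at 69.0.

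**Figure D4:**
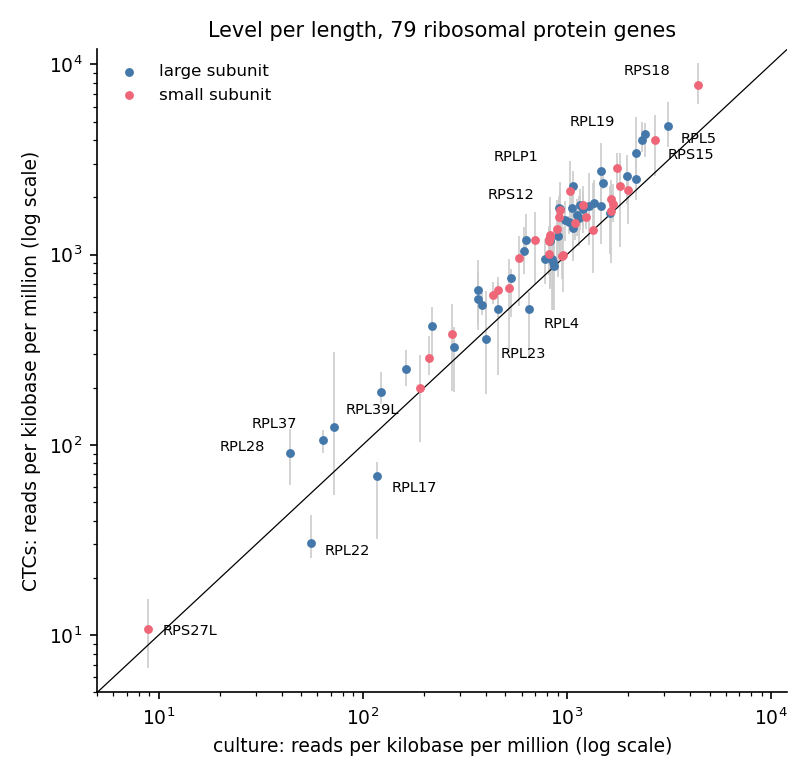
Level in RPKM in culture (x axis) and in CTCs (y axis, mean of 5 mouse means with a line from the lowest to the highest mouse), both on log scales, for 79 members, with the diagonal of equal levels. The order is close in both groups, RPS18 is highest at 7794 in CTCs and 4402 in culture, and RPL4, RPL23, RPL17 and RPL22 lie under the diagonal.

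The order of the members was similar in both groups, with a Spearman correlation of 0.951 across the 79 members, as a description. RPS18 was also highest in culture at 4402 RPKM. When the union of all annotated exons was used as the length, an alternative chosen after the data were seen, 7 of the 10 highest and all 5 of the lowest were the same. RPS24 fell from rank 7 to rank 56 and RPS12 rose from rank 15 to rank 2, so single ranks depended on the length used. Of the 100 genes with the highest RPKM, 24 were members in CTCs and 19 in culture.

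Reads of the rare paralogs RPL10L and RPL3L were few and came from CTCs of some mice only. Mice 5541 and 5542, where neither was seen, gave only 2 and 4 CTCs. RPL10L (ENSG00000165496, chr14:46651010-46651781), a testis-expressed copy of the X-linked RPL10 without introns, was detected in 10 of 17 CTCs of mouse 5546, in 2 of 4 of mouse 5549, in no CTC of the other mice and in no cultured cell. Its 214 reads included 80 in 5546-c9, 64 in 5546-s9 and 15 in 5549-6. The mean was 3.44 ± 4.92 RPM (SD, n = 5 mice), and the culture's count of 0 allows up to 0.543 RPM, counting error only. The mean of CTCs was 6.33 times that limit, which leaves out the spread over mice and so sets no least fold. This ratio was 3.03 without mouse 5546 and 4.01 without 5549-6, alternatives added after the data were seen. Since 3 mice had none, the spread between mice exceeded the mean.

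RPL3L, a paralog of RPL3 found in heart and skeletal muscle, had 17 reads, all in 4 CTCs of mouse 5546 with the letter s, 11 of them in 5546-s8. RPL39L, a testis-enriched paralog of the tunnel protein RPL39, was detected in 28 CTCs and all 6 cultured cells. Per 100 reads of RPL39 it had 13.6, 64.6, 17.4, 8.72 and 14.3 reads in mice 5541, 5542, 5545, 5546 and 5549, against 21.9 in culture. The high value of mouse 5542 came with CTC 5542-8, where RPL39L had 1219 reads and was 0.845% of member reads.

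RPS27L, a p53 target close in sequence to RPS27, had 24.4, 12.0, 7.65, 3.95 and 4.68 reads per 100 of RPS27 in the same order of mice, and 8.39 in culture. RPL22L1, the paralog of RPL22, had 114, 49.2, 63.3, 161 and 53.5 reads per 100 of RPL22, against 58.2 in culture. RPL36AL per 100 reads of RPL36A was 140 to 451 by mouse and 199 in culture. For these pairs the mice lay on both sides of the culture. Reads that matched more than 1 place were dropped, so the split between a gene and a close copy rests on the bases where they differ.

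Of the other members fixed by name, RPL10 itself was 2.76% to 2.91% of member reads in 4 mice and 3.90% in mouse 5542, against 2.50% to 3.44% in culture. RPS4X, the X-linked copy of a pair whose partner is on chromosome Y, was 1.63% ± 0.19 (SD, n = 5) against 1.62%. RPL10A was 0.844% ± 0.197 against 0.813%. Both means differed by less than the spread between mice.

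Members have many pseudogenes, 1593 of any type in the annotation, of which 1063 were in the table. Pseudogene reads per 100 member reads were 0.36 to 2.30 in CTCs and 0.41 to 0.55 in cultured cells. Mouse means ran from 0.543 in mouse 5545 to 1.32 in mouse 5546, with 0.845 ± 0.321 (SD, n = 5) against 0.454 in culture, so every mouse mean was above the culture mean. The exons of 23 members overlap another gene, for over 50% of the main transcript in 7 of them, including RPL17, RPS10 and RPL26.

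Between CTCs, members were steadier than most genes. The SD of log2(normalized count + 1) over 37 CTCs had a median of 0.774 over members, 2.25 over 7019 genes with a mean of at least 8, and 1.86 over 423 other genes with a mean of at least 250. It was smallest for RPL41 (0.44), RPS18 (0.46), RPS27A (0.50), RPL19 (0.51) and RPL36 (0.53). It was largest for RPL39L (2.77), RPS27L (1.89), RPL31 (1.72), RPL23A (1.54) and RPL23 (1.52). RPL31 ran from 0 to 1871 normalized counts in single CTCs and 555 to 776 in culture, and RPL23A, which takes part in docking of the signal recognition particle, ran from 1.67 to 2384 against 947 to 1485.

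Members also went up and down together from cell to cell. Over 37 CTCs the median of 3081 pairwise Spearman correlations between 79 members was 0.357, with 97.0% of pairs above 0, and over 7014 genes detected in at least 50% of CTCs it was 0.114. On RPM the medians were 0.343 and 0.082. The 7014 genes were not matched to the members in level, and the part of level in this gap was not tested. Pairs within the large subunit (0.361) and within the small subunit (0.335) were alike. The 7 ribosomal components outside the rule had a median of 0.189 on normalized counts and 0.058 on RPM. It was 0.312 and 0.267 for snoRNA host genes, many of which also carry a TOP tract, and 0.230 and 0.176 for mitochondrial ribosomal proteins. Translation factors gave 0.161 and 0.068, and ribosome biogenesis genes 0.161 and 0.128. The members least tied to the rest were RPL39L (0.12), RPS27A (0.17), RPS26 (0.18), RPS27L (0.19) and RPS12 (0.20). All of these pairs share libraries and mice.

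The 10 genes whose normalized counts followed the summed members most closely over the 37 CTCs included genes of glycolysis and of translation. They were the glycolytic GAPDH with a Spearman correlation of 0.759, the elongation factor EEF1G (0.754), EIF3H of initiation factor 3 (0.707), the membrane-binding ANXA2 (0.704), BSG, a chaperone of lactate transporters (0.654), the glycolytic TPI1 (0.648) and XRCC6 of DNA end joining (0.635). The remaining 3 were processed pseudogenes, ENSG00000244313 (0.676), ENSG00000283041 (0.663) and RPL18AP3 (0.639). The median over 6940 genes outside the family was 0.085. On RPM with the share of member reads the correlation was 0.413 for GAPDH and 0.310 for EEF1G, and it was lower than on normalized counts for each of the 10 except ENSG00000244313, at 0.713.

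The lowest correlations were those of the mitochondrially encoded MT-ND3 (-0.615) and MT-ND6 (-0.567), the mitochondrial pseudogene MTATP6P1 (-0.568), the snRNA-capping enzyme MEPCE (-0.569) and the endoplasmic reticulum protein RTN4 (-0.557). On RPM MT-ND3 was at 0.05 and MTATP6P1 at 0.18, so their place at the low end belonged to the normalized scale.

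The share of reads on members was weakly related to other measures of a CTC. With genes detected, the Spearman correlation over 37 CTCs was -0.02 and Pearson's r was -0.30, which became 0.02 without the 2 CTCs farthest from the median of genes detected. Within the 10 CTCs of mouse 5545 the values were -0.48 and -0.92, and r became 0.19 in the same way, so that relation rested on those cells. Without 5545-6 the Spearman correlation over the remaining 36 was 0.06. With reads per cell it was -0.05 and with the mitochondrial share 0.13. With MALAT1, a nuclear long noncoding RNA, it was -0.32 over 37 CTCs, -0.60 in mouse 5545 and -0.12 in the 17 CTCs of mouse 5546.

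**Figure D5:**
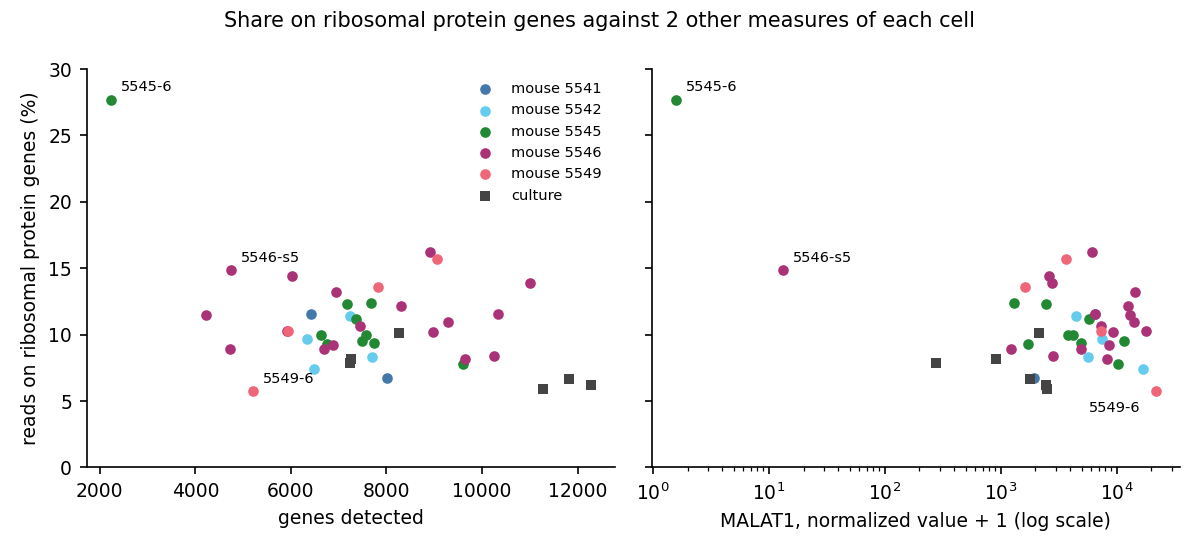
Share of reads on ribosomal protein genes (y axis, percent) against genes detected and against the normalized count of MALAT1 plus 1 (log scale) in 37 CTCs and 6 cultured cells, 1 point per cell, colored by mouse or culture. CTC 5545-6 lies at 27.7% with 2227 genes and 0.587 normalized counts of MALAT1, apart from the other cells. The other CTCs show no clear slope with genes detected, while the cultured cells with the most genes have the lowest shares of the culture.

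CTC 5545-6 had 1049915 reads, 2227 genes detected, 79 members and 27.7% of reads on members, with MALAT1 at 0.587 normalized counts. CTC 5546-s5 had 1238323 reads, 4737 genes detected, 14.9% on members and MALAT1 at 12.3. The mean of MALAT1 was 4249 to 8666 normalized counts by mouse and 1691 in culture. Low MALAT1 did not go with every high share, since 5546-c1, at 16.2%, had 6095 normalized counts of MALAT1 and 5549-3, at 15.7%, had 3644.

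Lists of the wider translation machinery had lower median ratios than the members on both scales. Of the 7 ribosomal components outside the rule, among them FAU and RACK1, none was 2-fold lower in every mouse on normalized counts, with a median log2 ratio of -0.48 (0.22 on RPM). Of 40 translation factors measured, 8 were lower on normalized counts (median -1.28) and none on RPM (median -0.49). Of all genes, 25.1% were lower on normalized counts (median -1.56) and 8.72% on RPM (median -0.81), so the median translation factor lay above the median gene. Elongation factors with TOP mRNAs spread widely on normalized counts, with log2 ratios of -0.41 ± 0.36 for EEF1B2, -0.89 ± 0.66 for EEF1A1, -1.02 ± 0.58 for EEF1G and -1.81 ± 0.79 for EEF2 (SD, n = 5). On RPM they were 0.29 ± 0.38, -0.22 ± 0.53, -0.32 ± 0.52 and -1.11 ± 0.80 in the same order. TPT1, another TOP mRNA, was at -0.01 ± 0.49 and 0.66 ± 0.46.

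Ribosome biogenesis was the list lowest in CTCs. Of 36 genes, 20 were lower on normalized counts with a median log2 ratio of -2.33, and 11 were lower on RPM with a median of -1.59. None was higher on either scale, and the percents of all genes lower by these rules were 25.1% and 8.72%. NCL, the nucleolar protein nucleolin, had 69.6, 170, 273, 222 and 331 normalized counts in mice 5541, 5542, 5545, 5546 and 5549, all below the cultured cells at 593 to 1921. Its log2 ratio was -2.67 ± 0.87 on normalized counts and -1.95 ± 0.90 on RPM (SD, n = 5). BOP1, needed for large subunit rRNA maturation, was at -3.21 ± 0.57 and -2.63 ± 0.55, and LTV1, an assembly factor of the small subunit, at -2.78 ± 0.45 and -2.03 ± 0.31. The list took 0.411% ± 0.122 of reads in CTCs and 0.812% in culture, opposite in direction to the members' share.

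The remaining lists lay between. Beside their counts, 25.1% of all genes were lower on normalized counts and 8.72% on RPM. Of 17 measured genes of growth control of ribosomal protein synthesis, 6 were lower on normalized counts (median log2 ratio -1.995) and 1 on RPM (-1.20). In that list LARP1 was at -2.38 ± 0.70 and -1.59 ± 0.71, and MYC, which drives ribosomal protein transcription, at -0.77 ± 1.18 and -0.23 ± 1.08 (SD, n = 5). Of 12 snoRNA host genes 3 were lower (median -1.55), and 1 of 11 on RPM. Host genes with a TOP tract differed widely, with GAS5 at -3.17 ± 1.40 and -2.53 ± 1.43, SNHG5 at -0.60 ± 1.08 and 0.20 ± 1.15, and ZFAS1 at -0.15 ± 0.83 and 0.59 ± 0.81. Of 77 mitochondrial ribosomal protein genes 20 were lower (median -1.58), and 4 on RPM (median -0.83), which is near the median of all genes.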

How the data were processed

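Values were taken from 37 CTCs of 5 mice and 6 cultured cells, and 4 further labelled CTCs have no column. The deposited signal holds gene counts that the authors divided by a size factor per cell (DESeq2 1.42.1). Their alignment with STAR 2.7.10a used GRCh38 and GENCODE 38, kept unique alignments and ignored strand, so antisense and overlapping genes are not separated and reads of near-identical copies are lost. Whole reads were recovered for 100% of values by dividing a cell's values by the lowest one above 0 (tolerance 0.001), and served for depth, shares, RPM and edgeR 4.0.16.

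Cells were averaged per mouse, and the culture was 1 sample. The rule of size and the edgeR quasi-likelihood test with Benjamini-Hochberg adjustment were run over all genes. Members and lists were chosen with earlier results of these data known. Members were named by level per length, size of ratio, SD, detection under 50% of CTCs, paralogy and known roles, and other genes by correlation with the members. Some members and list genes (RPL15, RPS26, and the list genes given with values) were named after their values were seen. Symbols and coordinates came from GENCODE 44. Alternatives were other scales, pseudocounts, folds, filters and averages, and leaving out mice, cultured cells or libraries. Python 3.11.15, R 4.3.3 and DESeq2 1.42.0 were used, and the steps were tested on simulated data. Results of some members and list genes are not reported here.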

Additional observations from a re-analysis of the deposited data

Results flagged for a closer look

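Values of the named members and of the share of reads were compared within groups of 4 to 10 values, and 8 of 57 groups held a value far from the others. Chance alone flags about 1 in 20 groups when they are independent and not chosen by their values. Many members were named for extreme values in these data, and percents share a total, so that rate does not apply here.

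Within mouse 5545, CTC 5545-6 had 27.7% of reads on ribosomal protein genes, and the other 9 CTCs had 7.77% to 12.4%. Among the 5 mouse means of the percent of member reads, RPL10 was 3.90% in mouse 5542 and 2.76% to 2.91% elsewhere. RPL39L was also highest in mouse 5542, at 0.232% against 0.0370% to 0.0816%, and RPL28 was lowest there, at 0.285% against 0.346% to 0.366%. RPL22 was 0.0738% in mouse 5545 and 0.0510% to 0.0553% in the others. In mouse 5549 RPL8 was 5.97% against 2.54% to 3.37%, and RPS12 was 1.56% against 0.801% to 0.939%. RPL3L was 0.000938% in mouse 5546 and 0 in the others, a pattern that this comparison always flags. The values of mice 5542 and 5549 are means of 4 CTCs each.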

How the results depend on the processing

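No paired analysis was possible because the replicate numbers only name picked cells and pair no CTC with a cultured cell. The count of members lower by the rule of size, 2 on normalized counts, was 0 on RPM, with or without mitochondrial genes, with TMM factors and at 4-fold, and 1 with a pseudocount of 8 or on reads relative to member reads, a scale added after seeing the data. The count of members higher, 0, was 11 with TMM factors. The median log2 ratio of members, -0.27, turned positive at 0.48 on RPM, 0.54 without mitochondrial genes and 1.03 with TMM factors, and was -0.013 on member reads. The median pairwise correlation was 0.397 by Pearson. The correlation of share with genes detected was -0.30 by Pearson and -0.48 within mouse 5545. Of all alternatives to these results 17 moved a value and 132 did not.

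When each mouse or cultured cell was left out in turn, the share ran from 10.3% to 10.9% in CTCs and from 6.96% to 7.80% in culture, and the difference from 2.77 to 3.64 percentage points. The median log2 ratio ran from -0.35 to -0.23, the pairwise correlation from 0.325 to 0.380 and the correlation of share with genes detected from -0.17 to 0.13. The count of members lower was 1 or 2, that of members higher 0, that of members called by edgeR 0, and the median number detected 79. The lone culture, the 2 CTCs of mouse 5541 and the few reads of low paralogs limit precision.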
